A study of Mus musculus with 282 samples.

Results

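Among basal cells sorted from inflamed mouse prostates, a small fraction carried the transcripts of dividing cells, and these mitotic cells were compared with the other inflamed cells captured in the same batch. The members were the inflamed cells with at least 1000 detected genes and 50000 counted reads, 80 of batch 2 and 76 of batch 3, of 282 cells in the whole series, 268 of which passed the same minimums. The classes were chosen by the measured reads of 28 named genes of the late cell cycle. A cell was placed in the mitotic class when it had a read of at least 10 of the 28, and in the other class when it had reads of fewer than 10. By this rule 15 cells were mitotic, 6 of batch 2 and 9 of batch 3, and 74 cells of batch 2 and 67 of batch 3 were not. The 28 genes chose the cells, so their values are given as a description and are not counted as test results.

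The series holds single-cell RNA sequencing of prostate cells of male POET3 mice, a line that carries an ovalbumin transgene active in the prostate, under 2 conditions, naive and inflamed. Only inflamed cells enter the comparison. The agent and time behind the inflammation, the age of the mice and the number of animals are not in the labels used here, so cells of a batch may share an animal. Basal cells were sorted from enzyme-digested tissue with a viability dye and antibodies against CD49f, Sca-1, CD31 and CD45, the gates of which the labels do not state. Each cell was captured on a microfluidic chip and its RNA amplified without molecular identifiers, so counts are reads rather than molecules.

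A dividing cell copies its DNA in S phase, condenses its chromosomes, attaches them through kinetochores to a spindle of microtubules, and splits by cytokinesis. Many genes of the last steps are transcribed mainly late in the cycle, under the control of the MuvB complex with B-Myb and FoxM1, and their proteins are removed by the anaphase-promoting complex after division. Basal cells of the prostate epithelium express keratins 5 and 14, Trp63 and integrin alpha 6 (CD49f), and include cells that divide during repair and inflammation.

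Counted at 1 read per gene, the 28 genes that chose the classes left a gap between them. In batch 2 the mitotic cells had reads of 15, 19, 21, 22, 22 and 27 of the genes, and the highest of the other cells had 8 (2 cells). In batch 3 the mitotic cells had 13, 13, 15, 16, 17, 20, 22, 23 and 24, and the highest of the other cells had 9 (1 cell), followed by 6. The medians of the other cells were 3 of 28 in batch 2 and 1 of 28 in batch 3. When only genes with at least 5 reads were counted, those medians were both 0, and the mitotic medians were 20 and 16. The classes then overlapped in batch 2, where mitotic cell 22 had 6 genes and other cell 34 had 7. Reads of the 28 genes made up a median of 1.03% of a mitotic cell's counts in batch 2 and 0.53% in batch 3, against 0.001% and 0.0003% in other cells. These shares overlapped: the lowest mitotic cells were at 0.061% and 0.080%, and the highest other cells at 0.217% and 0.123%.

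Depth was alike in both classes: the median count per cell was 967529 in mitotic and 1011932 in other cells of batch 2, and 960515 and 1013244 in batch 3. Detected genes per cell were higher in the mitotic cells, with medians of 5694 against 4611.5 in batch 2 and 4723 against 3966 in batch 3. With every cell thinned to 500000 reads the medians were 5073.5 against 4093 and 4340.5 against 3603. Thinning left out 10 inflamed cells of batch 2 and 4 of batch 3 that were shallower than that. The ranges of detected genes overlapped in both batches. The part of this difference in the results that follow was tested only by the comparison with other cells that had many detected genes, given below. Doublets were not removed, and their share is not known.

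One mitotic cell of batch 3, cell 22, stood apart. It had 297006 counts, 2591 detected genes and 23.5% of its reads on mitochondrial genes, against a median of 2.90% in the mitotic cells of that batch, and 358 reads on the 28 genes. A mitotic cell of batch 2, also cell 22, had reads of 15 of the genes but at least 5 reads of only 6 of them. Among the other cells, mitochondrial reads reached 94.3% in batch 2 and 28.1% in batch 3, with medians of 3.83% and 2.75%. Without batch 3 cell 22, 253 genes outside the 28 were at least 2-fold higher in both batches and 867 at least 2-fold lower, against 255 and 862 with it.

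Mitotic cells were 7.5% of the inflamed cells in batch 2 (6 of 80, exact 95% binomial interval 2.80% to 15.6%) and 11.8% in batch 3 (9 of 76, 5.56% to 21.3%). The intervals overlap and cover counting error only. Among naive cells measured the same way, 2 of 53 in batch 2 and 0 of 59 in batch 3 reached 10 of the 28 genes; for the 0 the exact 95% interval reaches 6.06% and the limit of 3 counts is 5.08%. With thinning, the inflamed counts were 6 of 70 and 8 of 72, and when each gene needed 5 reads they were 5 of 80 and 7 of 76.

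**Figure D1:**
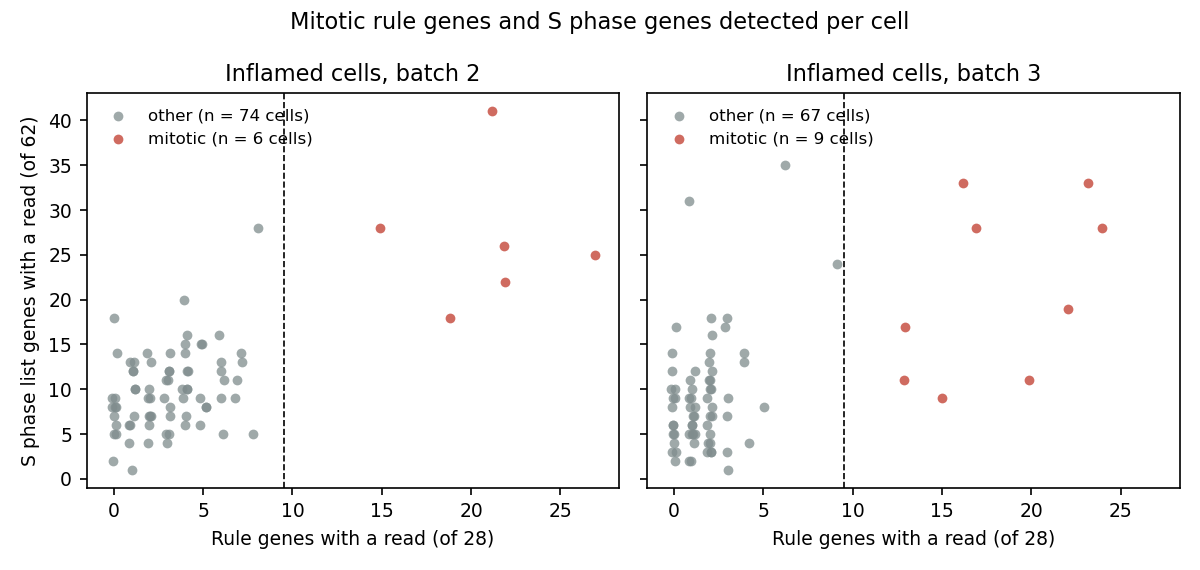
Each point is a kept inflamed cell, placed by its genes of the 28-gene rule with a read (horizontal axis) and its S-phase genes with a read (vertical axis), by class, with 1 panel per batch and a dashed line at the threshold of 10. Mitotic cells start at 15 (batch 2) and 13 (batch 3) of the 28 genes and other cells end at 8 and 9, while the classes overlap in S-phase genes.

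The 4 defining markers are among the 28 genes, so they describe the class. Cenpf, a kinetochore protein, had reads in 5 of 6 mitotic cells of batch 2 and 9 of 9 of batch 3, against 15 of 74 and 4 of 67 other cells. The spindle motor Kif11 had reads in 5 of 6 and 7 of 9 mitotic cells, against 5 of 74 and 1 of 67 others. Kif23, a kinesin of the central spindle, had reads in 4 of 6 and 8 of 9, and Hmmr, a spindle assembly factor, in 3 of 6 and 7 of 9. In the other cells Kif23 had reads in 7 of 74 and 1 of 67, and Hmmr in 1 of 74 and 1 of 67. Low shares of this kind in the other cells are the level against which the mitotic shares are read.

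Basal markers were read in both classes. Of 10 basal markers, 9 had a read in at least 50% of the cells of each class in each batch. Trp63 met this in batch 2 with 3 of 6 mitotic cells, and 1 of them had at least 5 reads. In batch 3 it had reads in 9 of 9 mitotic cells, and among other cells in 50 of 74 and 49 of 67. Krt5 was found in 6 of 6 and 9 of 9 mitotic cells and in 69 of 74 and 66 of 67 others, and Krt15 in every cell of both classes. Of 14 luminal markers, 7 and 5 had a read in at least 50% of mitotic cells and 6 in each batch of other cells. Leukocyte markers (20 genes) had 0 reads in the mitotic sums and 10 and 52 reads in the other sums, and Ptprc, which encodes CD45, was at 0 in the mitotic cells. Of 14 fibroblast and smooth muscle markers, 4 to 6 had any read, and the matrix proteoglycan gene Dcn held 97.7% to 99.9% of those reads in the mitotic sums. The summed level of that list was 3309 and 4787 reads per 1000000 reads (CPM) in mitotic cells and 3409 and 4330 CPM in other cells. The endothelial list (12 genes) was at 39.3 and 0.356 CPM in mitotic sums against 7.58 and 17.3 CPM, and the batch 2 mitotic reads were all from Esam. The neuroendocrine list (7 genes) was at 0 reads in batch 2 and 58.4 CPM in batch 3, all from Calca, against 0.122 and 0.528 CPM in other cells. The part of these lists in the results was not tested.

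The genes of the rule can be read by their roles in division. For the kinases and cyclins that drive mitotic entry, Cdk1 was at 259 CPM in the mitotic sum of batch 2 and 247 CPM in that of batch 3, against 6.67 and 11.4 CPM in other cells. Cyclin gene Ccnb1 was at 90.6 and 186.2 CPM against 0.0964 and 0.288 CPM, and the kinase gene Plk1 at 53.9 and 89.2 CPM against 1 read and 0 reads. Top2a, the topoisomerase that untangles sister chromatids, was at 1668 and 817 CPM against 9.34 and 4.06 CPM. Per cell, Top2a ran from 252 to 4166 CPM with a median of 1378 in batch 2, and from 0 to 2734 CPM with a median of 477 in batch 3. The highest other cells were at 284 and 274 CPM, so single cells of the classes overlapped.

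Not every mitotic cell carried every gene. The chromosomal passenger kinase Aurkb had reads in 6 of 6 mitotic cells of batch 2 and 2 of 9 of batch 3. Aurka, the spindle pole kinase, had reads in 2 of 6 and 3 of 9, and in batch 2 a single cell held 99.7% of its reads. Mki67, the proliferation antigen, had reads in 6 of 6 and 6 of 9. Cdc20, an activator of the anaphase-promoting complex, was the only 1 of the 28 without a higher level in the mitotic sums of both batches: it was at 5.51 CPM against 9.41 CPM in batch 2 and at 130 CPM against 0 reads in batch 3. In batch 2 its reads came from 1 of 6 mitotic cells, and 99.6% of those in other cells came from 1 cell.

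Promoters of these genes are known for 2 short elements, the CHR (TTTGAA or TTCGAA), to which MuvB binds, and CCAAT boxes, to which NF-Y binds. Both were searched on both strands from 250 bases before to 50 bases after each start in the RefSeq table of GRCm38.p6, 1 window of 300 bases a gene. Among the 25 of 28 genes matched there, 19 (76%) held a CHR, 20 (80%) a CCAAT and 17 (68%) both. Among all 27025 promoters in the table the shares were 19.4%, 37.9% and 7.70%. For the division genes outside the 28, under 80% matched, so that comparison is void. The sequences below are the 150 bases before the start, 5' to 3' on the gene's strand, with CHR and CCAAT letters or their reverse complements in capitals. They show 4 genes of the rule, then 3 named genes outside it, chosen because both elements lay in the 150 bases and the stretch lay outside the gene's own span in GENCODE. A match of letters is a description of the sequence, not a measured binding site.
Mki67, chr7:135716380-135716529 (minus strand): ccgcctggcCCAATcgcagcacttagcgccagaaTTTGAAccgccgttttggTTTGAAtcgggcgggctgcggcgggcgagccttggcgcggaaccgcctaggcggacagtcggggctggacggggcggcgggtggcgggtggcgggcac
Top2a, chr11:99024190-99024339 (minus strand): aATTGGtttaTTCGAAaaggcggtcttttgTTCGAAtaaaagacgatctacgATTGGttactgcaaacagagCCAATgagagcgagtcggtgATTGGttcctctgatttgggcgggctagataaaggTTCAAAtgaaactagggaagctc
Kif11, chr19:37376232-37376381 (plus strand): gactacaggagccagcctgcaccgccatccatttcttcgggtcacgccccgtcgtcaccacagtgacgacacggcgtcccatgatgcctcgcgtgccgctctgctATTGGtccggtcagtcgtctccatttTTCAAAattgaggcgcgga
Ect2, chr3:27153879-27154028 (minus strand): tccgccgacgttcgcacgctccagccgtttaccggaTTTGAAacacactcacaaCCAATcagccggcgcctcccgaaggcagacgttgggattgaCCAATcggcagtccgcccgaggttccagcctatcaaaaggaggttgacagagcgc
Ckap2, chr8:22185820-22185969 (minus strand): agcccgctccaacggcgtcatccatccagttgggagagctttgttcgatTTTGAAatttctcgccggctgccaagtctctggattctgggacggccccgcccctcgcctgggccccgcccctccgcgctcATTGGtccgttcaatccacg
Ckap2l, chr2:129297213-129297362 (minus strand): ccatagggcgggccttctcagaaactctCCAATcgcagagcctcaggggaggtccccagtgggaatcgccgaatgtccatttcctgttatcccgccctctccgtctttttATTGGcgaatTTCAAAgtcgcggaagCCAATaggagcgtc
Smc2, chr4:52439071-52439220 (plus strand): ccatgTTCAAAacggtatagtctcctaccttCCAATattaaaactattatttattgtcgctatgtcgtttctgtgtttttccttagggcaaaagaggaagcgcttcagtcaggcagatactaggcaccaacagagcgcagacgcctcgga
In the Kif11 promoter the CHR letters begin at position -19 and the CCAAT letters at -45, counted back from the start. In Ckap2l the CHR letters begin at -30, with CCAAT letters at -122, -40 and -14. Top2a holds 3 CHR matches, the first at -140 and the last nearest its start, and 4 CCAAT matches.

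Outside the 28 genes, mitotic cells had higher median levels for each of 5 lists of division genes in both batches. Cells of 1 class and batch were summed, which gave 1 sum per class and batch, and levels are CPM of these sums scaled by TMM. Of the tested genes in these lists (spindle, kinetochore, cytokinesis, condensin and cohesin, kinases and regulators), 87 (68.5%) lay above the other cells in both batches and 12 (9.45%) below. Among all 12824 tested genes outside the 28, 16.3% lay above and 39.6% below in both. The median log2 difference of the division genes was 2.65 in batch 2 and 2.84 in batch 3, against -0.64 and -0.48 for all tested genes. A gene could pass the filter on low counts through the mitotic sums alone, where it had to be high, so these figures describe the genes that passed and support no statement on division genes as a whole. The same limit holds for the counts and medians of the single division lists and the S-phase list below. Of the 47 division genes found in at least 20% of all cells compared, 24 (51.1%) lay above in both batches and 7 (14.9%) below, with medians of 0.65 and 0.52. The same counts over all 6837 tested genes found that often were 19.5% and 36.3%, with medians of -0.30 and -0.215.

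No gene outside the 28 passed an adjusted p of 0.05 in edgeR's quasi-likelihood test over the 4 sums with batch as a term: 0 were called higher (0.0%) and 0 lower (0.0%), and the lowest adjusted p was 0.716. That fit has 1 residual degree of freedom. Even the 28 genes that chose the cells did not pass it, so 0 calls do not show that differences are absent. At an unadjusted p under 0.05, 1.26% of genes were higher and 237 (1.85%) lower, and of the division genes 42 were higher and 2 lower. DESeq2 on the same sums called 1.26% of genes higher and 488 (3.81%) lower, of the division genes 56 higher and 3 lower. The groups are single sums, so the differences below are sizes. The edgeR p-values rest on how differences varied between 2 batches, with each gene's variance drawn towards that of other genes (3.04 prior degrees of freedom). They do not measure the spread between cells.

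The kinetochore and checkpoint list had 29 of 35 genes higher in both batches and 1 lower. Only 7 of the 35 were found in at least 20% of cells. Knl1, the scaffold that joins microtubules to kinetochores, was at 220 CPM in the mitotic sum of batch 2 and 98.3 CPM in that of batch 3, and had 6 reads and 1 read in the other sums. Per cell it ran from 0 to 877 CPM with a median of 76.8 in batch 2, and from 0 to 536 CPM with a median of 1.46 in batch 3, and the highest other cells were at 7.28 and 1.22 CPM. In each batch some mitotic cells had no Knl1 read, and 4 of 6 and 5 of 9 lay above every other cell. One cell gave 63.7% and 74.5% of the mitotic Knl1 reads. Ska1, which couples kinetochores to shrinking microtubules, was at 32.4 and 36.5 CPM with 0 reads and 1 read in other cells, and 84.4% of its batch 3 mitotic reads came from 1 cell. Incenp, the scaffold of the Aurora B complex, was at 153.99 and 29.6 CPM against 2.74 CPM and 0 reads. Sgo2a, a protector of centromeric cohesion, was at 18.7 and 39.6 CPM against 0.551 and 1.38 CPM.

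The spindle and kinesin list had 20 of 27 genes higher in both batches and 4 lower. Only 6 of the 27 were found in at least 20% of cells. Prc1, which bundles the microtubules of the central spindle, was at 422 and 707 CPM in mitotic sums against 37.2 and 2.30 CPM (edgeR log2 difference 5.87 ± 1.67 SE, unadjusted p = 0.024, adjusted p = 0.716, higher in 2 of 2 batches). Per mitotic cell Prc1 ran from 48.3 to 1197 CPM with a median of 340 in batch 2, and from 0 to 2206 CPM with a median of 90.9 in batch 3. In batch 2 all 6 mitotic cells were above the median of the others and 1 above their maximum of 637 CPM. In batch 3, 6 of 9 were above the maximum of 33.2 CPM. Ckap2l, a spindle protein, was 16.9-fold and 10.3-fold higher, with 63.8% of its batch 3 mitotic reads from 1 cell. Without batch 3 cell 22 the Ckap2l log2 difference was 3.01, against 3.72 with it. The kinesin gene Kif15 was at 17.5 and 65.6 CPM against 0.703 CPM and 0 reads, with 82.4% of its batch 3 reads from 1 cell. Ckap2 was at 147.5 and 105.3 CPM against 23.4 CPM and 1 read.

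In the cytokinesis list 11 of 17 genes lay above the other cells in both batches and 1 below, and 8 were found in at least 20% of cells. Racgap1, part of the centralspindlin complex with Kif23, was at 180.7 and 145.5 CPM against 8.47 and 7.16 CPM, differences of 21.3-fold and 20.3-fold. Shcbp1, a midbody protein, was at 468 and 124.9 CPM against 12.9 and 0.303 CPM. It had at least 5 reads in 6 of 6 mitotic cells of batch 2 but in 4 of 9 of batch 3, and in 1 other cell of each batch. Cit, the citron kinase, was 17.04-fold and 72.5-fold higher. Iqgap3, a scaffold of the cell cortex, was at 54.9 and 32.5 CPM against 1 read and 0 reads, and 91.6% of its batch 3 reads came from 1 cell. Cdca3, which acts at mitotic entry, was at 58.6 and 108.9 CPM against 1.43 and 0.144 CPM, and 80.1% of its batch 2 reads came from 1 cell.

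The condensin and cohesin list had 12 of 20 genes higher in both batches and 1 lower, and 13 were found in at least 20% of cells. The condensin core genes Smc2 and Smc4 were both among the higher genes. Smc4 ran from 175.96 to 1226 CPM per mitotic cell with a median of 613 in batch 2, and from 0 to 921 CPM with a median of 160 in batch 3, against medians of 2.45 and 0.904 CPM in other cells. All 6 and 8 of 9 mitotic cells lay above the other cells' median, while the highest other cells, at 447 and 783 CPM, lay inside the mitotic range. Its edgeR log2 difference was 2.89 ± 0.57 SE (unadjusted p = 0.0068, adjusted p = 0.716). Ncaph, a subunit of condensin I, was at 141.98 and 87.3 CPM against 1 read and 3.57 CPM. Rad21, the cohesin subunit cut at anaphase, was 3.18-fold and 4.24-fold higher. Without batch 3 cell 22 the Rad21 log2 difference was 1.45, against 1.88 with it.

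Kinases and regulators outside the 28 showed smaller differences, with medians of 0.79 in each batch on the log2 scale, 16 of 29 genes higher in both and 5 (17.2%) lower. Cks1b, a small partner of the cyclin-dependent kinases, was at 116.3 and 157.2 CPM against 23.6 and 29.1 CPM. Its values in other cells reached 306 and 468 CPM, above every mitotic cell of that batch. Of 3 subunits of the anaphase-promoting complex, Anapc11 was at 63.1 and 14.3 CPM against 12.03 and 8.24 CPM (log2 1.59 ± 1.63 SE). Cdc27 was at 45.4 and 114.1 CPM against 36.5 and 88.4 CPM, and Anapc5 at 139.3 and 118.35 CPM against 80.8 and 100.9 CPM. Without 1 mitotic cell the direction of Cdc27 and of Anapc5 turned in the fit. Processed pseudogenes Gm12856, Gm8956 and Ccnb1-ps were also among the genes with the largest differences, and reads may be shared with their parent genes, so their values are uncertain.

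**Figure D2:**
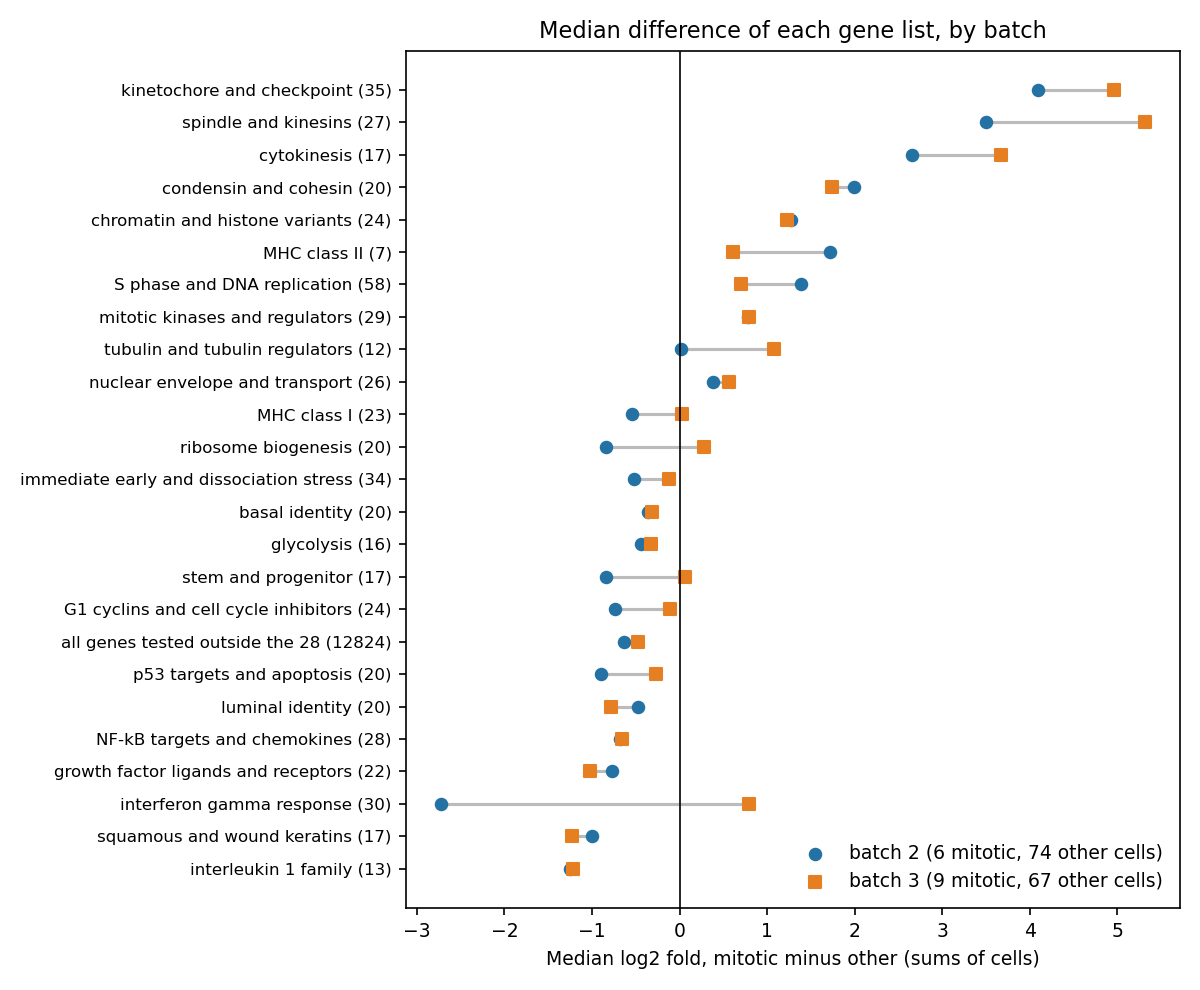
Median within-batch log2 difference (mitotic minus other, CPM of the sums) for the gene lists, batch 2 and batch 3. The division lists lie above 0 in both batches, with the kinetochore list at 4.09 and 4.96, while all tested genes lie at -0.64 and -0.48. Genes that passed the filter through the mitotic sums alone are included. The 47 division genes found in at least 20% of cells had medians of 0.65 and 0.52.

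Among tubulin genes and their regulators, Tubb5 separated most cells of the classes. Tubb5, a beta tubulin, was at 2612 and 3071 CPM in mitotic sums against 351 and 577 CPM, differences of 7.45-fold and 5.33-fold (edgeR log2 difference 2.66 ± 0.29 SE, unadjusted p = 0.000774, adjusted p = 0.716). Per mitotic cell it ran from 827 to 3805 CPM with a median of 3084 in batch 2, and from 387 to 5190 CPM with a median of 2628 in batch 3. Other cells had medians of 120.8 and 431 CPM, 0 of them lay above the mitotic median, and 5 of 6 and 5 of 9 mitotic cells lay above the highest of them. Stmn1, which destabilises microtubules, was 6.68-fold and 4.77-fold higher and had at least 5 reads in all 6 and all 9 mitotic cells, against 35 of 74 and 42 of 67 others. Tuba1b was at 67.6 and 73.7 CPM against 5.11 and 8.44 CPM, and tubulin genes have near-identical copies, so reads may be split among them. Of the 12 tested genes of the list, 6 (50%) were higher in both batches and 1 (8.33%) was lower, against 16.3% and 39.6% of all tested genes.

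Nuclear envelope and chromatin genes followed. The envelope and transport list had 13 of 26 genes (50%) higher in both batches and 5 (19.2%) lower. The chromatin list had 16 of 24 (66.7%) higher and 3 (12.5%) lower. Over all tested genes 16.3% were higher and 39.6% lower in both. Lbr, the lamin B receptor, was at 463 and 419 CPM against 105.5 and 109.7 CPM. Mitotic cells had Lbr medians of 613 and 266 CPM and other cells 1.5 and 1.22 CPM, but 4 and 10 other cells lay above the mitotic median. Ran, the GTPase of nuclear transport and spindle assembly, was 2.58-fold and 5.80-fold higher. Cbx5, a heterochromatin protein, was at 688 and 548 CPM against 86.8 and 192 CPM, and 9 of 9 mitotic cells of batch 3 lay above the median of the others. The nucleosome-binding genes Hmgn2 and Hmgb2 were 5.74-fold and 3.01-fold higher in batch 2, and 4.52-fold and 4.82-fold higher in batch 3.

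**Figure D3:**
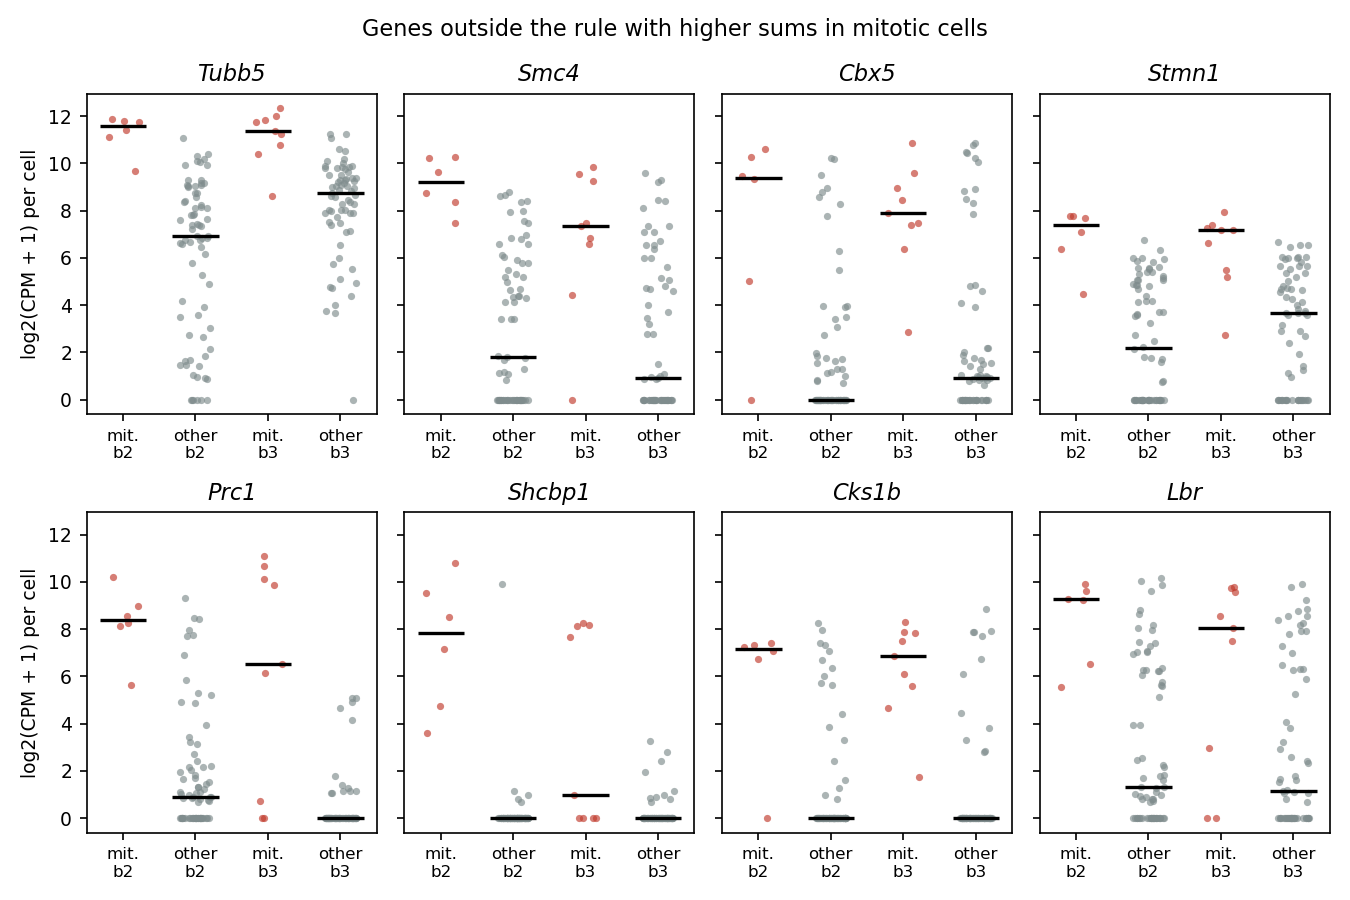
Expression per cell, as log2(CPM + 1), of 8 genes outside the 28 that were higher in mitotic cells of both batches; each point is a cell and lines are medians. Tubb5 and Stmn1 had reads in every mitotic cell, whereas Prc1 and Shcbp1 were at 0 in some mitotic cells of batch 3.

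Genes of S phase were higher as a list but less evenly. Of 58 tested, 26 (44.8%) lay above the other cells in both batches and 11 (19%) below, against 16.3% and 39.6% of all tested genes. The list medians were 1.38 and 0.70 on the log2 scale. Of 62 S-phase genes in the table, mitotic cells had reads of a median of 25.5 (18 to 41) in batch 2 and 19 (9 to 33) in batch 3, against 9 (1 to 28) and 8 (1 to 35) in other cells. Thinned to 500000 reads the medians were 24 and 21.5 against 8 and 7. Lig1, the ligase that seals replicated DNA, was at 158.2 and 83.2 CPM against 13.9 and 5.91 CPM. Pcna, the sliding clamp, was at 73.2 and 101.2 CPM against 16.8 and 27.1 CPM, with at least 5 reads in 3 of 6 and 5 of 9 mitotic cells and in 25 of 74 and 20 of 67 others. Mcm5, of the replicative helicase, went in opposite directions, at 194 against 0.124 CPM in batch 2 and 23.4 against 36.8 CPM in batch 3. Rfc3, a clamp loader subunit, was 7.11-fold and 12.4-fold higher, with 91.1% of its batch 2 reads from 1 cell.

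Cells with many S-phase genes were not confined to the mitotic class. In all, 5 other cells had reads of at least 20 S-phase genes, a number chosen after the values were seen, and held 20, 28, 24, 31 and 35 of them with reads of 4, 8, 9, 1 and 6 of the 28 genes. In the mitotic class, S-phase genes with a read ranged from 9 in batch 3 cell 22 to 41 in a batch 2 cell that had 21 of the 28. Both naive cells that reached 10 of the 28 genes were of batch 2 and had 43 and 46 S-phase genes. The other 51 naive cells of that batch had a median of 24 (4 to 42), above the medians of the other inflamed cells. Both naive cells were also deep, at 1444427 and 1982057 counts against a median of 897713. With thinning they had 40 S-phase genes each, against a median of 18 (8 to 34) in 44 other naive cells of batch 2.

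G1 cyclins and inhibitors were not higher as a list, with 2 of 24 genes (8.33%) higher in both batches and 9 (37.5%) lower. Over all tested genes the shares were 16.3% and 39.6%. Ccnd1, the cyclin of G1 entry, was at 1.17 and 23.1 CPM against 25.8 and 46.1 CPM (edgeR log2 difference -2.70 ± 2.05 SE, adjusted p = 0.904). Btg2, an antiproliferative gene, was at 633 and 1399 CPM against 1395 and 2352 CPM, but its median per cell was higher in the mitotic class in batch 2 (626 against 131.8 CPM) and lower in batch 3 (905 against 1333 CPM). Cdkn1a, the p21 inhibitor, was at 316 and 144.9 CPM against 124.99 and 147.8 CPM. Its medians per cell were higher in the mitotic class of both batches, at 234.5 and 77.4 CPM against 28.95 and 9.32 CPM. In batch 2, 5 of 6 mitotic cells and in batch 3, 6 of 9 lay above the Cdkn1a median of the others. Of 20 p53 target and apoptosis genes, 0 were higher in both batches and 9 (45%) were lower, near the 39.6% of all tested genes. Trp53inp1, a p53 target, was at 91.1 and 69.6 CPM against 348 and 573 CPM. One cell gave 74.4% and 58.6% of the mitotic reads, and without 1 of them (batch 2 cell 43) the log2 difference was -3.36, against -2.49 with it. Its median per cell was lower in mitotic cells of batch 2 (2.505 against 5.37 CPM) and higher in those of batch 3 (35.01 against 12.43 CPM).

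Single genes also lay below the other cells. Ranked by the smaller of the 2 within-batch differences, among genes found in at least 50% of other cells, Smad3 came first among the lower genes. This transcription factor of TGF-beta signalling was at 7.01 and 2.48 CPM in mitotic sums against 275 and 368 CPM. Mitotic cells ranged from 0.967 to 34.4 CPM in batch 2 and from 0 to 18.96 CPM in batch 3, with medians of 2.08 and 0 CPM. Other cells had medians of 10.9 and 1.85 CPM and reached 2912 and 4218 CPM, so low cells were found in both classes and high cells only among the others here. At least 5 reads were found in 1 of 6 and 2 of 9 mitotic cells and in 42 of 74 and 27 of 67 others (edgeR log2 difference -6.24 ± 0.93 SE, unadjusted p = 0.0025, adjusted p = 0.716, lower in 2 of 2 batches). The histone demethylase gene Kdm7a was at 1.5 and 16.1 CPM against 175.5 and 277 CPM, and Mat2a, which makes S-adenosylmethionine, at 19.2 and 1.98 CPM against 203 and 112.4 CPM, with 97.4% of its batch 2 mitotic reads from 1 cell. With 6 and 9 cells in the mitotic sums, a gene expressed in few cells can be missed there.

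Of 28 NF-kB targets and chemokines, 1 was higher in both batches and 10 (35.7%) were lower, against 39.6% of all tested genes. Icam1, the leukocyte adhesion molecule, was at 26.4 and 121.45 CPM against 535 and 575 CPM. Mitotic cells had Icam1 medians of 1.90 and 11.1 CPM with highest values of 102.1 and 475 CPM, and other cells medians of 61.3 and 292 CPM. In batch 2, 2 of 6 mitotic cells, and in batch 3, 2 of 9, lay above the median of the others. Ptgs2, which encodes cyclooxygenase 2, was at 432 and 630 CPM against 1898 and 2147 CPM, which is 4.39-fold and 3.41-fold lower (edgeR log2 difference -1.95 ± 0.29 SE, unadjusted p = 0.0025, adjusted p = 0.716). Its mitotic medians per cell were 198 and 6.73 CPM against 1165 and 1444 CPM, and 1 of 6 and 2 of 9 mitotic cells were above the other median. Ccl20, a chemokine for dendritic and T cells, had 3 reads in the mitotic sum of batch 2 against 506 CPM, and 555 against 1856 CPM in batch 3. One cell gave 74.6% of the batch 3 mitotic reads, and 1 cell gave 38.9% and 54.9% of the reads of the other cells. The Ccl20 median per cell in batch 3 was 3.57 CPM in mitotic and 2.11 CPM in other cells, and without 1 mitotic cell (batch 3 cell 78) the log2 difference was -6.38, against -5.40 with it. Il1rn, the interleukin 1 receptor antagonist, was at 319 against 81.4 CPM in batch 2 and 84.98 against 197 CPM in batch 3, and 99.3% of the latter mitotic reads came from 1 cell.

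Squamous and wound genes were lower as a list: 12 of 17 (70.6%) were lower in both batches and 2 higher, with median log2 differences of -1.0 and -1.23. Over all tested genes 39.6% were lower and 16.3% higher in both. Of the 17 genes, 6 had a sum with 0 reads, and 11 were found in at least 20% of cells. Krt17, a wound keratin, was at 4505 and 4346 CPM against 7083 and 5862 CPM, and 3 of 6 and 3 of 9 mitotic cells lay above the median of the others. Krt13 was 2.77-fold and 3.52-fold lower, but 1 cell gave 99.2% of its mitotic reads in batch 2. Sfn, an epithelial 14-3-3 protein gene, was 2.01-fold and 1.79-fold lower. All tested genes had negative medians as well. Against other cells with at least as many detected genes as the median mitotic cell (6 and 10 cells) the mean of the squamous medians was -0.64. In that comparison the mean for the division genes was 4.26, and the medians of all tested genes were -0.009 and 0.0.

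Basal and luminal genes lay on both sides of the other cells. Of 20 basal genes, 3 lay above the other cells in both batches and 9 below, and of 20 luminal genes 4 and 10. These shares (15% and 45%, 20% and 50%) were near those of all tested genes, 16.3% and 39.6%. Trp63 was at 37.5 and 213.7 CPM in mitotic sums against 87.1 and 297.2 CPM. Without batch 2 cell 9 the Trp63 log2 difference was -3.70, against -0.84 with it. Krt14 was at 970 and 578 CPM against 1201 and 1058 CPM, Krt5 at 151.99 and 206 CPM against 138.8 and 162.2 CPM, and Itga6 at 451 and 462 CPM against 541 and 348 CPM. Ly6a, which encodes the Sca-1 protein used in the sort, was at 1228 against 2202 CPM in batch 2 and 2235 against 1966 CPM in batch 3. Of 3 luminal keratin genes, Krt19 was lower in both batches, at 413 and 134.97 CPM against 601 and 663 CPM (named after its values were seen). Krt18 and Krt8 were higher in both batches, Krt18 at 1418 and 1730 CPM against 887 and 730 CPM and Krt8 at 185.02 and 244 CPM against 115.9 and 95.2 CPM. All 6 mitotic cells of batch 2 lay above the other cells' Krt18 median, but in batch 3 only 5 of 9 did, and 1 cell gave 65.7% of the reads. Without that cell the Krt18 log2 difference was 0.35, against 0.96 with it.

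MHC class II genes, which present antigen to CD4 T cells, were higher in both batches for 6 of 7 tested genes, with medians of 1.72 and 0.61, and 2 had an unadjusted p under 0.05. Over all tested genes 16.3% were higher in both batches and 1.26% were higher at that p. H2-Aa was at 674 and 1800 CPM against 118.1 and 1193 CPM. Per mitotic cell H2-Aa ran from 0 to 1691 CPM with a median of 468 in batch 2, and from 6.73 to 3710 CPM with a median of 1483 in batch 3, against medians of 0.998 and 776 CPM in other cells. In batch 2, 5 of 6 mitotic cells and in batch 3, 7 of 9 lay above the median of the others. Cd74, the invariant chain, was 2.40-fold and 1.47-fold higher, with 54.1% of the batch 2 reads from 1 cell. Cxcl10, an interferon-induced chemokine, was 5.23-fold and 1.75-fold higher, but the interferon gamma list as a whole had medians of -2.72 and 0.79 with 6 of 30 genes higher in both batches and 8 lower.

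**Figure D4:**
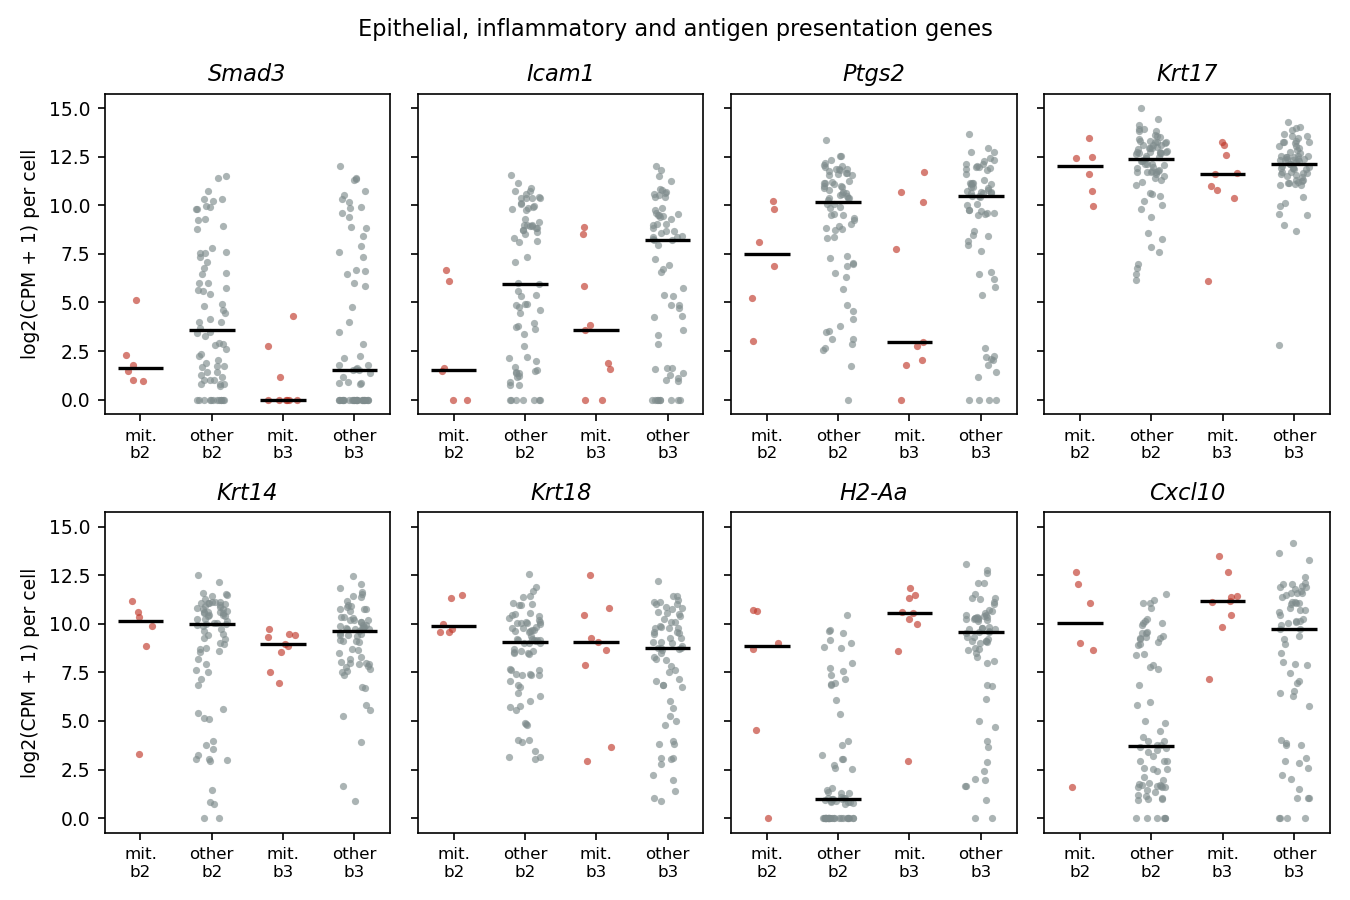
Expression per cell, as log2(CPM + 1), of 8 inflammatory, keratin and antigen presentation genes by class and batch; each point is a cell and lines are medians. Mitotic medians of Smad3, Icam1 and Ptgs2 lie below those of other cells in both batches, the H2-Aa medians lie above, and the keratins overlap.

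Across genes found in at least 20% of the inflamed cells (6837 genes outside the 28), 255 (3.73%) were at least 2-fold higher in both batches and 862 (12.6%) at least 2-fold lower. Batch 2 alone gave 1004 higher (14.7%) and 2196 lower genes (32.1%), and batch 3 alone 1160 (17%) and 2074 (30.3%). The 255 shared genes were 25.4% of the batch 2 list and 21.98% of the batch 3 list, and the 862 lower genes 39.3% and 41.6%. Of the 255, 13 were on the division lists, 8 on the chromatin list, 5 each on the S-phase and nuclear envelope lists and 4 on the tubulin list, and 212 were on none of the lists used.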

How the data were processed

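The samples are single cells, 282 in all, and only inflamed cells were compared. The authors deposited raw read counts per gene and cell, 48440 genes, in 1 table per batch. Per the submitters' processing notes, TopHat2, HTSeq, R 3.4.1, Seurat 1.4 and the build GRCm38.p6 were used, and the treatment of strand and of reads that map to several places is not given there. The members and gene lists were chosen with earlier results of these data known.

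Counts were summed over mitotic and over other cells of each batch (4 sums, totals 5702236, 73523094, 8430933 and 70028189 reads). Sums, not cells, are the units. edgeR 4.0.16 (R 4.3.3) fitted the quasi-likelihood test with TMM scaling and batch as a term to 12852 genes kept by filterByExpr, with Benjamini-Hochberg adjustment over all of them, and DESeq2 1.42.0 was the alternative. The SE beside an edgeR log2 difference was worked back from the test, as the absolute difference divided by the square root of its F statistic. Within a batch, log2 CPM differences used a prior count of 2. Lower limits of detection take 3 counts, and exact binomial intervals are at 95%. Scripts were tested on simulated data. Symbols and coordinates follow GENCODE vM21, with 48058 of 48440 identifiers matched.

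The named genes were the 15 higher and 10 lower genes with the largest smaller within-batch difference that had a read in at least 50% of the cells of the class where they are high, up to 4 genes of each list by the same measure, and a short fixed set of epithelial and cycle genes. Alternatives covered scaling, gene and cell filters, the threshold of 10 genes, thinning, batches alone and leaving out each mitotic cell. Cells under 1000 detected genes or 50000 counts (5 and 2 inflamed cells) were left out. Some results are not reported here. All cells had distinct counts (0 identical pairs).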

Additional observations from a re-analysis of the deposited data

Results flagged for a closer look

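Cell 22 of the mitotic class in batch 3 lay far from the other 8 mitotic cells of that batch in 2 of the 8 measures checked per batch (16 in all). It had 2591 detected genes, the lowest of the class, and 23.5% of its reads on mitochondrial genes, the highest. About 1 in 20 groups is marked by chance under this check. The medians of the class in batch 3 were 4723 genes and 2.90%. Without the cell, the mean over batches of the median log2 difference was 2.65 for the division genes, 0.985 for the S-phase genes and -1.175 for the squamous genes, and edgeR's quasi-likelihood test called 0 genes in either direction.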

How the results depend on the processing

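Calls by edgeR's quasi-likelihood test were 0 higher and 0 lower under each edgeR setting tried, the 15 that each left out 1 mitotic cell included, and DESeq2 called 1.26% and 3.81% of the tested genes. In the main edgeR fit the 28 genes of the rule were not called either, so the edgeR counts do not show that differences are absent. The limit of the gene filter holds for the higher DESeq2 calls. The batch label pairs the sums, and without the replicate block for batch edgeR called 0 and 0 (the smallest adjusted p was 0.322, and unadjusted p-values under 0.05 numbered 242 for higher genes and 1530 for lower). Genes at least 2-fold higher in both batches were 513, and 2-fold lower 668, when the other cells were limited to those with at least as many detected genes as the median mitotic cell, a choice made after seeing the data. Batch 2 alone gave 1004 higher and 2196 lower genes and batch 3 alone 1160 and 2074, which need no agreement between batches. Leaving out 1 mitotic cell gave 250 to 281 higher and 867 to 939 lower. The list medians below are means over both batches. The division median was 2.93 with DESeq2 size factors, 2.53 with no gene filter, 0.756 in genes found in 20% of cells, 3.67 against other cells with 0 to 2 of the 28 genes, 3.14 against other cells with at least as many detected genes as the lowest mitotic cell, 2.95 with cells weighted equally and 4.26 against other cells with at least the median number of detected genes of the mitotic cells, and 2.55 to 2.89 without 1 cell. The S-phase median was 1.59 against cells with 0 to 2 genes and 0.701 to 1.20 without 1 cell. Against other cells with at least the median number of detected genes of the mitotic cells (the many-gene cells) it was 2.16. The squamous median was -0.934 with DESeq2 size factors and -0.944 in genes found in 20% of cells. At thresholds of 8 and 15 genes it was -0.614 and -0.927. It was -1.29 with thinning, -0.64 against the many-gene cells, and -1.26 to -0.985 without 1 cell. The median of all tested genes, -0.64 and -0.48 with TMM, was -0.41 and -0.35 with DESeq2 size factors and -0.70 and -0.65 with the upper quartile. It was -0.09 and -0.086 when only genes found in 20% of cells were fitted. Against other cells with at least the median number of detected genes of the mitotic cells it was -0.009 and 0.0. Fitted log2 differences of single genes turned direction as follows. Cdc27 was -0.103 at a threshold of 8 and -0.352 against cells with 0 to 2 genes. Txnip was 0.001 when each gene of the rule needed 5 reads and 0.337 against the many-gene cells. Dkc1 was -0.076 at a threshold of 15 and -1.31 with 5 reads. Irf1 was 0.555 at a threshold of 8. Against the many-gene cells Trp63 was 1.54, Nop58 -0.123 and Igf1r -0.337. Cd44 was 0.047 with DESeq2 and with its size factors, 0.036 in genes found in 20% of cells and 0.005 against cells with 0 to 2 genes. Itga6 was -0.051 with the upper quartile, -0.056 with thinning, -0.719 with 5 reads and -0.075 against the many-gene cells. Without 1 mitotic cell the ranges that crossed 0 were -0.449 to 0.205 for Itga6, -0.558 to 0.002 for Cd44, -0.166 to 0.502 for Cdc27, -0.679 to 0.551 for Dkc1, -2.87 to 0.552 for Il1rn, -0.331 to 0.662 for Igf1r, -0.446 to 0.394 for Krt5, -0.607 to 1.26 for Gbp2 and -0.998 to 0.667 for Anapc5. The cause of these changes was not tested. Limits: mitotic sums hold 6 and 9 cells, so a low gene may be missed there, 26 named genes passed the threshold only with DESeq2, and neither animals nor sort gates are named in the labels used here.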
